A study of Mus musculus with 23 samples.

Results

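The axon guidance ligands and receptors were followed through osteocyte-enriched bone of mice given mechanical loading, L-BAIBA (a muscle-derived amino acid metabolite) or both. Members were chosen by gene symbol alone: the semaphorins, plexins and neuropilins, netrins, Dcc and Unc5 genes, Slit and Robo genes, ephrins and Eph receptors. This gave 69 genes of the 15492 present in the count tables of both experiments, of which 3 (Unc50, Unc5cl and Plxna4os1) share a prefix with a family without belonging to it, leaving 66. Epha1 and Sema5b were listed in the 2-week table alone and were not compared.

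All groups were C57BL/6 male mice aged 5 months, the right tibia of which was loaded at 8.25 N while the left, nonloaded tibia served as the contralateral control. In the 2-week experiment, mice received L-BAIBA at 100 mg/kg/day in drinking water, or regular water (vehicle), with 3 loading bouts per week for 2 weeks, and the 4 groups (L-BAIBA loaded, L-BAIBA nonloaded, vehicle loaded and vehicle nonloaded) had 3 libraries each. In the single-bout experiment, mice received L-BAIBA or vehicle for 5 days before 1 bout, and the groups had 3 libraries each except L-BAIBA nonloaded, which had 2. Bones were taken 24 h after the last bout, and tibiae of 1 side from 2 mice were pooled for a library, so the nonloaded bone came from animals loaded on the other side. Both tibiae gave a library in 9 of the 14 pools. The second vehicle loaded and the third vehicle nonloaded library of the 2-week experiment had no library of the other side. Total counts in genes per library were 6368289 to 18318951 (2-week) and 17811949 to 37562527 (single-bout).

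Axon guidance molecules are secreted or membrane-bound cues and their receptors, first known for steering growing nerve fibers. Semaphorins signal through plexins, with neuropilins as co-receptors for most of class 3. Netrins signal through Dcc and the Unc5 receptors, Slits through Robo receptors, and ephrins through Eph receptors, the last pair signaling into both cells in contact. In bone, Sema3a is known to protect bone mass, Sema4d is made by osteoclasts and restrains osteoblasts through Plxnb1, and ephrin B2 with Ephb4 couples osteoclasts to osteoblasts.

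Promoters of 4 of the 5 members with the smallest p-values after 2 weeks of loading are shown first, because they belong to the genes on which that comparison turns. The window of the other one, Robo4, ran past the gene start in the deposited table and is not shown. The sequences are the 250 bases before the RefSeq start on GRCm38.p6, all on the plus strand: Sema3e at chr5:14025026-14025275, Sema3d at chr5:12382916-12383165, Sema5a at chr15:32244563-32244812 and Slit3 at chr11:35121206-35121455. Capitals mark matches on either strand to the GC box GGGCGG, some of which overlap one another.
Sema3e: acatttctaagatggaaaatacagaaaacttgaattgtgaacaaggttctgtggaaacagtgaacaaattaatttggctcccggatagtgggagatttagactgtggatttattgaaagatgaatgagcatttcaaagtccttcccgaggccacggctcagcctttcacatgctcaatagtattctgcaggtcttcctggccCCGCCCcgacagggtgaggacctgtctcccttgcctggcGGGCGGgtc
Sema3d: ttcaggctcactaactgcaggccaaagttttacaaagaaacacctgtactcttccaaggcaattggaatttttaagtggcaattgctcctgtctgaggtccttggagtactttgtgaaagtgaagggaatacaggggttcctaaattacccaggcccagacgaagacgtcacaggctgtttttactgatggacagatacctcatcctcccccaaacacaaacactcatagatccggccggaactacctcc
Sema5a: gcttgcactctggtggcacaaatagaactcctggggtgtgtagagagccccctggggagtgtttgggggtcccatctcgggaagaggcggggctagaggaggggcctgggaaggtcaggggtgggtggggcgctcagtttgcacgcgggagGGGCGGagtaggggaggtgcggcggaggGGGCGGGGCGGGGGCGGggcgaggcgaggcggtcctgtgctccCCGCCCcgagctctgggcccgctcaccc
Slit3: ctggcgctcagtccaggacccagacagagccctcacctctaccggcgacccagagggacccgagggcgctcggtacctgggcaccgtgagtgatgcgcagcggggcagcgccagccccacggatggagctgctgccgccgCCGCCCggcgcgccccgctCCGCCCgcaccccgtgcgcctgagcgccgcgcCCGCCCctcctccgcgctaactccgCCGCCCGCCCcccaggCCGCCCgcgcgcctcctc

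The GC box was found in Sema3e, Sema5a and Slit3 and not in this window of Sema3d. It was present in 43 of the 58 members with a RefSeq promoter (74.1%) and in 32.7% of all 32851 promoters. The member share takes the first listed promoter of each gene. The other takes every RefSeq promoter, whether or not its gene was tested here. The sets are therefore unlike, and the share over the tested genes was not computed. None of the 4 windows held a match, on either strand, to AP-1 (TGANTCA), CRE (TGACGTCA), TEAD (ACATTCC), TCF/LEF (CTTTGAT) or RUNX (TGTGGT). In that order, these motifs were present in 6.75%, 1.55%, 3.25%, 3.21% and 14% of all promoters. Among the 58 members with a promoter the shares were 3.45%, 1.72%, 3.45%, 1.72% and 13.8%. The base composition of the windows ranged from 46.8% G and C in Sema3d to 78.8% in Slit3.

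The labelled cell type was checked first. The osteocyte genes Dmp1, Phex, Mepe and Sost were present in every library, with Dmp1 at 1228 to 9280 CPM (read counts scaled to library size) in the 2-week experiment and 1190 to 4029 CPM in the single-bout experiment. Neutrophil genes were also high, S100a8 reaching 6488 CPM (2-week) and 13917 CPM (single-bout). In bulk libraries of this kind, fewer cells of a type and less RNA per cell cannot be told apart. The summed level of 10 osteocyte markers was 5508 to 17322 CPM in L-BAIBA loaded, 11454 to 16569 in L-BAIBA nonloaded, 7535 to 22957 in vehicle loaded and 7191 to 7921 in vehicle nonloaded libraries of the 2-week experiment. The summed level of 8 neutrophil markers was 30049 to 71137 CPM in L-BAIBA loaded, 27512 to 48777 in L-BAIBA nonloaded, 22613 to 25121 in vehicle loaded and 24538 to 32512 in vehicle nonloaded libraries of the single-bout experiment. Neuron markers summed to at most 29.3 CPM and Schwann cell markers to at most 381 CPM in any library.

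**Figure D1:**
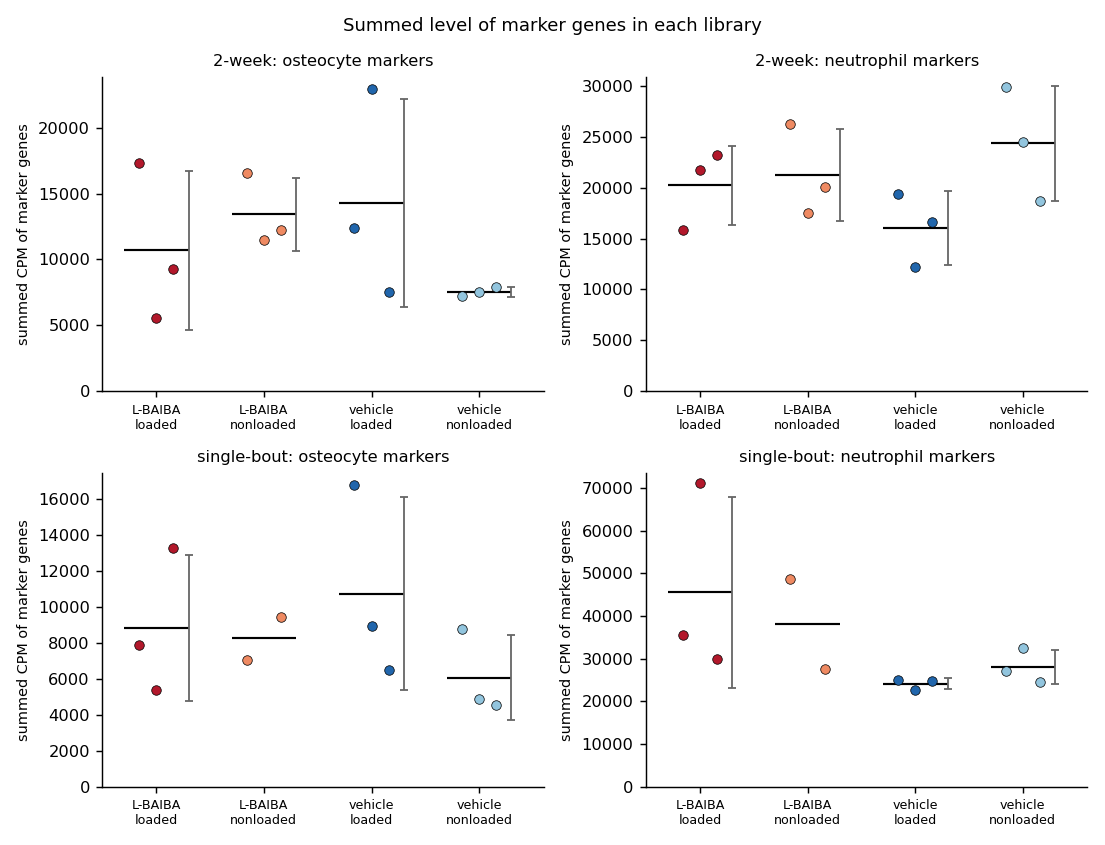
Summed CPM of osteocyte (left) and neutrophil (right) marker genes in each library (points), with group means (lines) and SD (bars, groups of 3), for the 2-week (top) and single-bout (bottom) experiments. In the 2-week experiment, vehicle nonloaded libraries lay within 7191 to 7921 CPM for osteocyte markers, below all L-BAIBA nonloaded libraries.

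Levels of the members were compared with one another per kilobase of exon, in the vehicle nonloaded bones. Of the 69 members, 21 averaged over 10 CPM per kb across both experiments and 24 averaged under 1 CPM per kb. The neuropilin Nrp2 stood highest, at 56.3 ± 13.3 CPM per kb after 2 weeks and 36.7 ± 1.5 after a single bout (SD, n = 3 each). The membrane-anchored semaphorin Sema7a followed, at 47.2 ± 3.74 and 33.7 ± 3.88 CPM per kb in the same order of experiments, and its SD overlapped that of Nrp2. Sema6d averaged 36.5 ± 7.81 and 34.8 ± 5.77 CPM per kb, and Sema4d averaged 31.5 ± 0.844 and 35.5 ± 3.41 CPM per kb, so these neighbors did not differ beyond their spread. Among receptors of the other families, Unc5b, a netrin receptor, averaged 29.0 ± 3.25 and 18.2 ± 5.18 CPM per kb, while Dcc was near the bottom of the order. Slit3 was the highest Slit, at 30.4 ± 2.91 and 22.9 ± 3.95 CPM per kb, ahead of Slit2 at 16.8 ± 1.26 and 14.8 ± 1.70 CPM per kb. The endothelial receptor Robo4 was the highest Robo, at 11 ± 0.711 and 9.02 ± 1.53 CPM per kb. Of the ephrins, Efnb1 led at 19.8 ± 2.27 and 10.9 ± 1.58 CPM per kb. Of the Eph receptors, Epha2 led at 18.1 ± 7.69 and 12.8 ± 2.66 CPM per kb, above Ephb4 at 9.05 ± 2.53 and 5.57 ± 1.41 CPM per kb. By family, 8 of 19 semaphorins and 5 of 11 of their receptors averaged over 10 CPM per kb, with 3 of 7 Slit and Robo genes, 2 of 10 netrin genes and receptors, 1 of 8 ephrins and 1 of 11 Eph receptors.

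**Figure D2:**
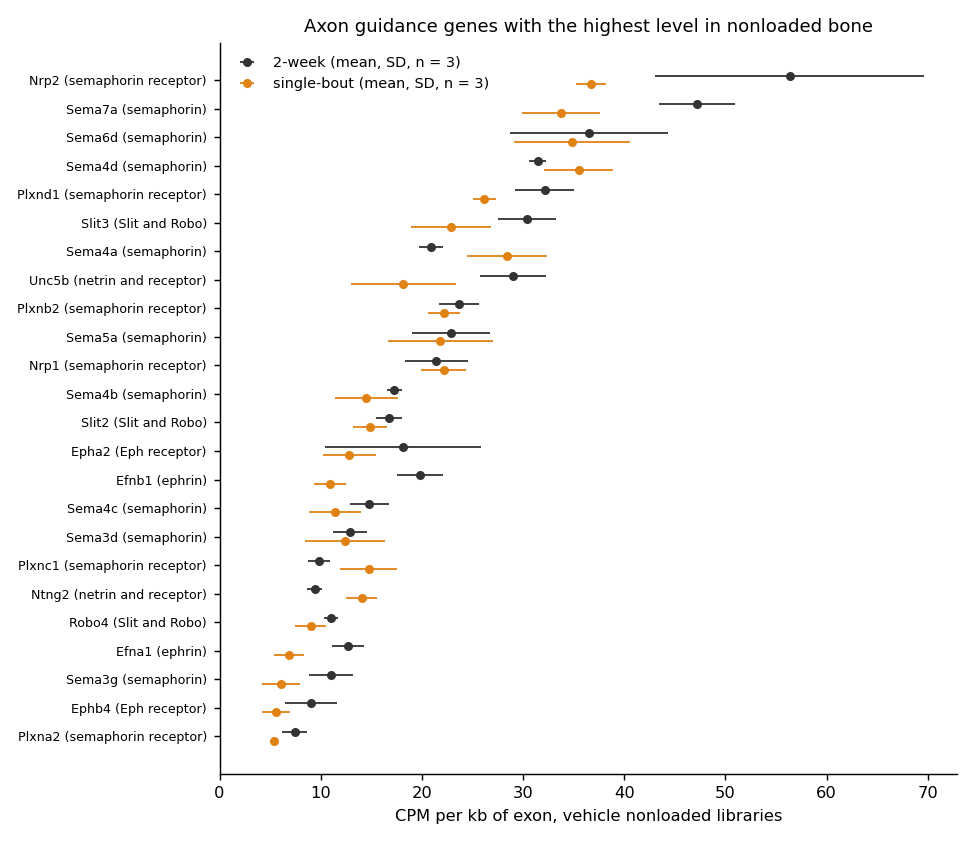
Level of the 24 highest family members in vehicle nonloaded libraries, in CPM per kb of exon, as mean (points) and SD (bars) of 3 libraries in the 2-week and single-bout experiments. Nrp2, Sema7a, Sema6d and Sema4d stand at the top, and most genes are lower in the single-bout experiment, in a table that was normalized separately.

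No gene of the whole table, and so no member, passed an adjusted p of 0.05 in edgeR's quasi-likelihood test in any of the 12 comparisons within experiments or the 3 differences between experiments (0% of the genes tested in each). What follows is therefore given at an unadjusted p under 0.05, beside the share of all genes that met the same rule. These shares are from the fit of all libraries without a replicate block. They are no background for counts given with a library left out or with the mouse pool as a block. At an adjusted p of 0.05, DESeq2 called 1 gene after 2 weeks of loading, 2 after 2 weeks of L-BAIBA, 8 in the difference in the combination between experiments, 5 after single-bout L-BAIBA and 2 after single-bout loading in L-BAIBA mice, none of them members. It called more in the other comparisons of the single-bout combination, as given there.

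After 2 weeks of loading without L-BAIBA, most members stood on 1 side. Of the 69, 58 had a positive log2 fold change (vehicle loaded over vehicle nonloaded bone), with a median log2 fold change of 0.36, against a median of 0.01 over all 15576 genes. At unadjusted p, 14 members were higher and 0 lower, where 6.16% of all genes were higher and 4.01% lower (10.2% in either direction). The 14 comprised 7 of 19 semaphorins, 3 of 7 Slit and Robo genes, 2 of 8 ephrins, 1 of 10 netrin genes and receptors, 1 of 11 plexins and neuropilins and 0 of 11 Eph receptors.

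Sema3e, a class 3 semaphorin that binds Plxnd1, had 17.8, 32.3 and 11.9 CPM in vehicle loaded bone, against 7.82, 6.73 and 10.8 CPM in vehicle nonloaded bone. Every loaded library was above every nonloaded one. The log2 fold change was 1.30 (SE 0.39, unadjusted p = 0.00508, edgeR adjusted p = 0.475), and 0.82 without the second vehicle loaded library. Sema3d, another secreted class 3 member, had 126, 297 and 115 CPM in vehicle loaded bone, against 90.9, 71.6 and 90.1 CPM in vehicle nonloaded bone. The groups did not overlap, and the second vehicle loaded library was far above the others. Its log2 fold change of 1.09 (SE 0.37, unadjusted p = 0.0121) became 0.52 without that library and no longer met the threshold, and was 0.58 with the mouse pool as a fixed replicate block.

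Sema5a, a transmembrane semaphorin with thrombospondin repeats, had 402, 658 and 337 CPM in vehicle loaded bone, against 215, 232 and 294 CPM in vehicle nonloaded bone. The lowest loaded library stood above the highest nonloaded one, for a log2 fold change of 0.91 (SE 0.28, unadjusted p = 0.00636) that was 0.58 without the second vehicle loaded library. Slit3, a secreted ligand of Robo receptors, had 269, 371 and 171 CPM in vehicle loaded bone, against 136, 154 and 165 CPM in vehicle nonloaded bone. The third loaded library was barely above the nonloaded ones, and the log2 fold change of 0.83 (SE 0.29, unadjusted p = 0.013) became 0.54 without the second vehicle loaded library and no longer met the threshold. Robo4 had 79.6, 65.6 and 47.9 CPM in vehicle loaded bone, against 44.8, 43.5 and 39.6 CPM in vehicle nonloaded bone. These groups did not overlap either, and the log2 fold change was 0.59 (SE 0.18, unadjusted p = 0.00578). Endothelial markers summed to 826 to 1161 CPM in vehicle loaded bone, against 802 to 866 CPM in vehicle nonloaded bone, with the first and second vehicle loaded libraries highest, and the part of this in Robo4 was not tested.

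Further members at unadjusted p were Efna3 (log2 fold change 1.13), Sema7a (0.82), Efna2 (0.79), Sema4c (0.73), Slit2 (0.63), Unc5b (0.60), Sema6d (0.58), Sema6b (0.48) and Plxnb2 (0.39). Of the pairs known from bone, Sema3a was 0.40 (SE 0.22) with its receptors Nrp1 at 0.22 (SE 0.19) and Plxna1 at 0.36 (SE 0.20), none of which met the threshold. Sema4d was 0.02 (SE 0.20) with Plxnb1 at 0.33 (SE 0.26), and Efnb2 was 0.49 (SE 0.28) with Ephb4 at 0.24 (SE 0.22). Epha2 had 172, 262 and 53.8 CPM in vehicle loaded bone, against 106, 51.3 and 56.7 CPM in vehicle nonloaded bone, and the groups overlapped.

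The pathway genes that are no members were counted in the same way, beside the same shares of all genes (6.16% higher and 4.01% lower). Of 90 tested genes of a list of co-receptors and other guidance cues, adaptors, kinases and cytoskeletal regulators, 14 were higher and 0 lower at unadjusted p, with a median log2 fold change of 0.23. Among them were Srgap1 (1.12), a GTPase-activating protein that acts below Robo receptors, and Ptk2 (0.62), which encodes focal adhesion kinase. The count of members was 5 without the second vehicle loaded library, whose mice gave no nonloaded library, and 6 without the first vehicle nonloaded library. The second and first vehicle loaded libraries also had high summed osteocyte markers (22957 and 12366 CPM, with 7535 CPM in the third). Erythroid markers summed to 794.5 to 1386 CPM in vehicle loaded bone, against 1510 to 2097 CPM in vehicle nonloaded bone. T and NK cell markers summed to 32.62 to 42.96 CPM, against 49.97 to 59.72 CPM in the same order. Skeletal muscle markers summed to 7.903 to 10.44 CPM, against 11.95 to 13.99 CPM. Smooth muscle and pericyte markers were higher in vehicle loaded bone, at 351.8 to 629.5 CPM, against 265.2 to 340.5 CPM in vehicle nonloaded bone. Sums of neutrophil, B cell, and monocyte and macrophage markers overlapped between these groups. The part of these marker sums in the result was not tested.

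**Figure D3:**
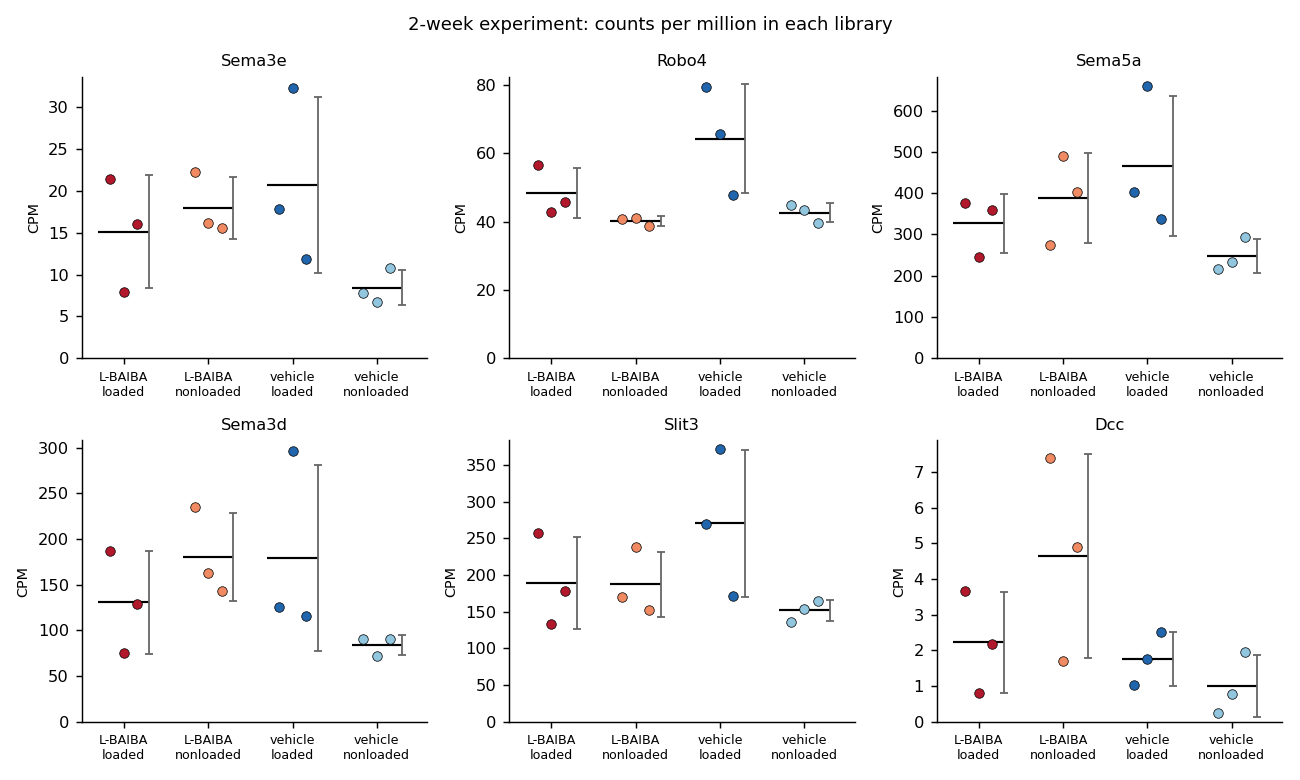
CPM of 6 members in each library of the 2-week experiment (points), with group means (lines) and SD (bars, n = 3). For Sema3e, Robo4, Sema5a, Sema3d and Slit3 all 3 vehicle loaded libraries lie above all 3 vehicle nonloaded libraries, and Dcc is highest in L-BAIBA nonloaded bone.

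In nonloaded bone, 4 of the 9 members that were higher after 2 weeks of L-BAIBA were class 3 semaphorins, and the others were Dcc, Epha3, Epha7, Sema5a and Sema6d. At unadjusted p, 9 members were higher and 1 (Unc50, a prefix-only gene, log2 fold change -0.32) lower in L-BAIBA nonloaded than in vehicle nonloaded bone, where 5.37% of all genes were higher and 3.86% lower (9.23% in either direction). All 7 class 3 semaphorins had a positive log2 fold change, 4 of them at unadjusted p, with a median of 0.55. Of the 6 class 4 semaphorins, 5 had a negative value and 0 met the threshold. The median of all members was 0.12, against -0.005 over all genes.

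Dcc, a netrin receptor, had 7.40, 1.69 and 4.89 CPM in L-BAIBA nonloaded bone, against 0.244, 0.784 and 1.96 CPM in vehicle nonloaded bone. These values rest on 50, 31 and 44 counts against 4, 12 and 19 counts, and the groups overlapped. The log2 fold change was 2.26 (SE 0.75, unadjusted p = 0.0098, edgeR adjusted p = 0.536). The 6 neuron markers in the table summed to 29.3, 9.72 and 15.2 CPM in L-BAIBA nonloaded bone, against 8.74, 7.91 and 12.3 CPM in vehicle nonloaded bone, and the part of this in Dcc was not tested. Sema3d had 235, 163 and 143 CPM in L-BAIBA nonloaded bone, against 90.9, 71.6 and 90.1 CPM in vehicle nonloaded bone. The groups did not overlap, and the log2 fold change was 1.10 (SE 0.38, unadjusted p = 0.0118). Sema3e had 22.2, 16.2 and 15.5 CPM in L-BAIBA nonloaded bone, against 7.82, 6.73 and 10.8 CPM in vehicle nonloaded bone. It too was separate between the groups, with a log2 fold change of 1.09 (SE 0.39, unadjusted p = 0.015). Sema3c, present at 10 to 22 counts in L-BAIBA nonloaded libraries, had a log2 fold change of 1.30 (SE 0.49, unadjusted p = 0.0205). Epha3, an ephrin A receptor, had 11.8, 11.5 and 11.9 CPM in L-BAIBA nonloaded bone, against 5.01, 6.27 and 10.3 CPM in vehicle nonloaded bone, for a log2 fold change of 0.72 (SE 0.28, unadjusted p = 0.022) that was 1.08 without the third vehicle nonloaded library. Epha7 (1.17), Sema5a (0.65), Sema3a (0.55) and Sema6d (0.49) made up the rest.

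The loading and L-BAIBA comparisons share the 3 vehicle nonloaded libraries, so a low value in those libraries enters both. With any 1 of the 12 libraries left out, the L-BAIBA count lay between 4 and 11, at 4 without the second vehicle nonloaded library, 5 without the first and 6 without the third L-BAIBA nonloaded library. Osteocyte markers were also higher in all 3 L-BAIBA nonloaded libraries than in all 3 vehicle nonloaded libraries, by the sums given above. Smooth muscle and pericyte markers were higher too, at 359.6 to 682.4 CPM, against 265.2 to 340.5 CPM. Erythroid markers were lower, at 1129 to 1476 CPM, against 1510 to 2097 CPM. So were B cell markers (238.9 to 276.5 against 281.7 to 469.2 CPM) and T and NK cell markers (37.89 to 48.96 against 49.97 to 59.72 CPM). The part of these marker sums in the result was not tested. Of the 90 other pathway genes, 4 were higher and 1 lower (5.56%), below the 9.23% of all genes that met the rule. Among the 5 were Ptk2 (0.53) and Draxin (-1.02), a secreted netrin antagonist.

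When loading and L-BAIBA were combined for 2 weeks, the members stood nearer to vehicle nonloaded bone than after loading alone. The member median had been 0.36 after loading alone and 0.12 after L-BAIBA alone. Against vehicle nonloaded bone, 0 members met the threshold in either direction (1.88% of all genes did), with a median log2 fold change of 0.13, although 48 of 69 were positive. Over all genes the median was -0.003, and 49.5% were positive. With the mouse pool as a random replicate block 1 member met it, and without the second L-BAIBA loaded or the third vehicle nonloaded library 5 and 4 did. Leaving out the third L-BAIBA loaded or the second vehicle loaded library gave 2 members, and leaving out the first L-BAIBA loaded, first L-BAIBA nonloaded or the third vehicle loaded library gave 1. Against vehicle loaded bone, the median over all genes was -0.009, and 48.5% of them were positive. There, 54 of 69 members were negative, with a median of -0.28. Of these, 5 were lower and 0 higher at unadjusted p, where 1.5% of all genes met the rule: Efna3 (-1.13), Sema4g (-0.84), Sema3b (-0.54), Sema6b (-0.44) and Robo4 (-0.42). Efna3, a ligand of A-class Eph receptors, had 1.43, 1.12 and 1.35 CPM in L-BAIBA loaded bone, against 3.38, 3.07 and 2.08 CPM in vehicle loaded bone, and the groups did not overlap. Sema3b was -0.28 without the second vehicle loaded library and Robo4 was -0.22 without the first, and both then missed the threshold. The count ranged from 0 without the second L-BAIBA loaded library to 15 without the first, was 11 without the third vehicle loaded library, 2 without the first or the second and 3 without the third L-BAIBA loaded library. It was 20 without both libraries of the shallowest pool (the first L-BAIBA loaded and first L-BAIBA nonloaded library) and 3 with the random replicate block.

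Within L-BAIBA mice, 2 weeks of loading gave 35 positive and 34 negative members with a median of 0.02, and 2 lower at unadjusted p (1.68% of all genes met it): Epha3 (-0.68) and Sema3c (-1.11). It was 5 with the mouse pool as either a fixed or a random replicate block, and 0 to 6 with a library left out (6 without the first L-BAIBA loaded library, 5 without the second L-BAIBA nonloaded library, 0 without the second or the third L-BAIBA loaded or the third L-BAIBA nonloaded library, and 1 without the first L-BAIBA nonloaded or any of the vehicle loaded libraries). The difference between the response to loading in L-BAIBA and in vehicle mice was negative for 53 of 69 members, with a median of -0.38. Over all genes its median was -0.007, and 49.3% were positive. At unadjusted p, 10 members were lower and 0 higher, where 4.13% of all genes were lower and 2.47% higher (6.6% in either direction). Efna3 had the largest difference among the 5 with the smallest p, at -1.88 (SE 0.58, unadjusted p = 0.00675, edgeR adjusted p = 0.724), followed by Sema3e at -1.56 (SE 0.54), Sema3d at -1.56 (SE 0.53, and -0.99 without the second vehicle loaded library), Sema5a at -1.16 (SE 0.40) and Sema6d at -0.89 (SE 0.30). The vehicle nonloaded libraries enter this difference as well as the 2 comparisons above, so it is not separate evidence of them. The count was 17 with the random replicate block, 19 without both tibiae of the shallowest pool, 22 without the first L-BAIBA loaded library, 5 without the second vehicle loaded library and 6 without the first vehicle nonloaded or the third L-BAIBA loaded library.

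**Figure D4:**
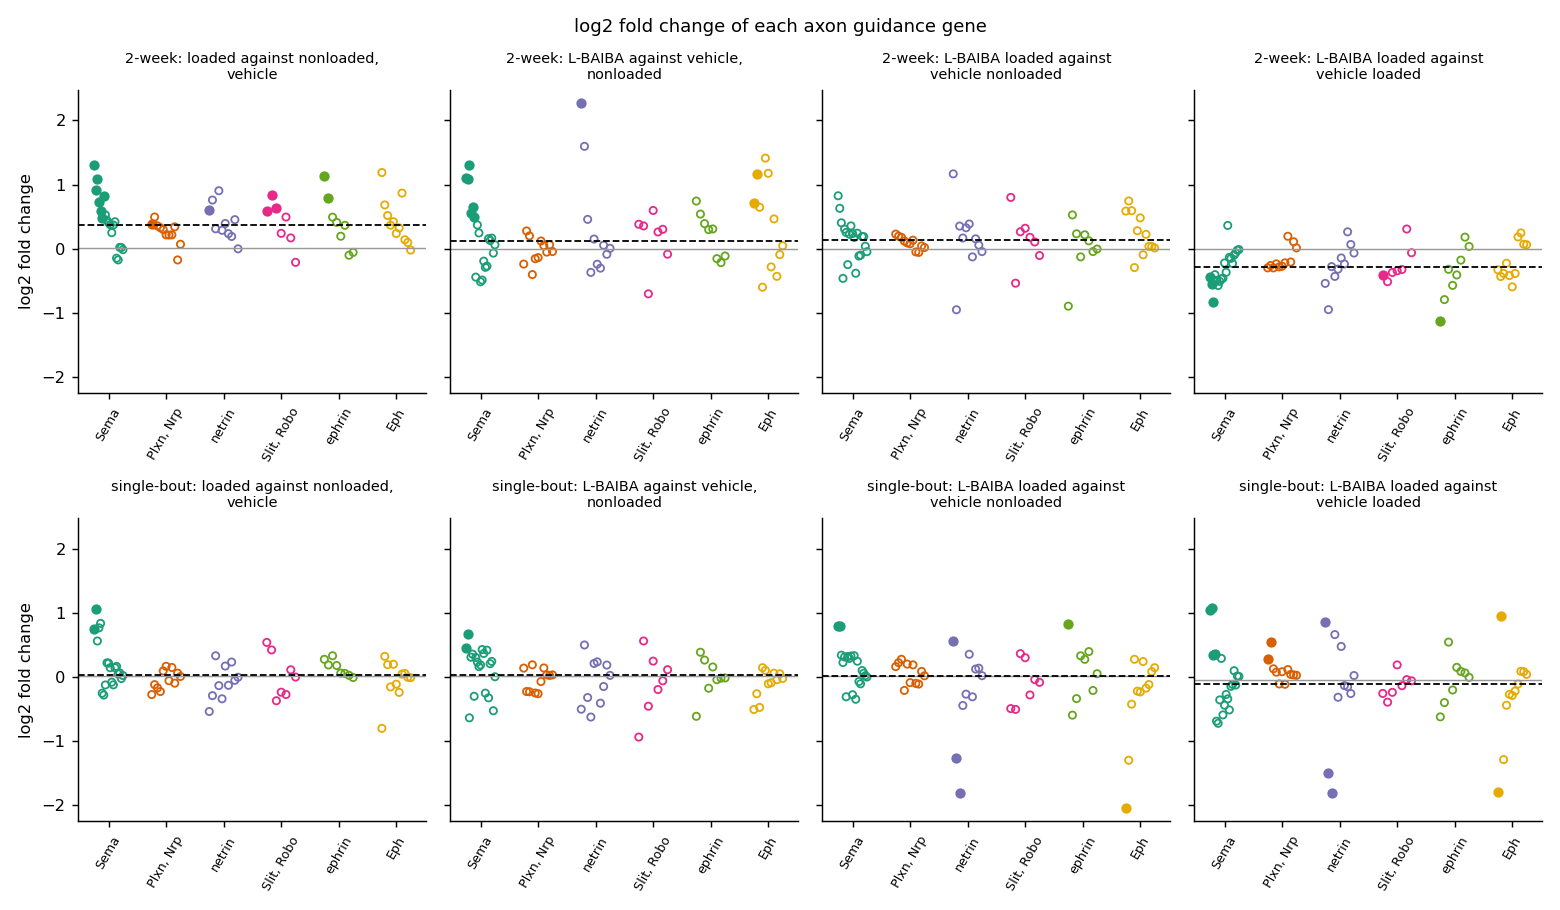
The log2 fold change of the 66 family members in 4 comparisons of the 2-week (top) and single-bout (bottom) experiments, by family. Filled points have an unadjusted p under 0.05, the dashed line is the median of all 69 members and the gray line the median of all genes tested. In the 2-week experiment the member median is 0.36 for loading and -0.28 for L-BAIBA loaded against vehicle loaded bone.

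A single bout of loading without L-BAIBA was compared in the same way. At unadjusted p, 2 members were higher and 0 lower (1.19% of all genes met the rule), with a median log2 fold change of 0.03. Sema6d had 624, 342 and 299.6 CPM in vehicle loaded bone, against 298, 235 and 220 CPM in vehicle nonloaded bone, for a log2 fold change of 0.75 (SE 0.31, unadjusted p = 0.037). Sema3e had 37.9, 15.6 and 14 CPM in vehicle loaded bone, against 15.5, 10.1 and 6.97 CPM in vehicle nonloaded bone, for a log2 fold change of 1.05 (SE 0.48, unadjusted p = 0.0497). In both genes the first vehicle loaded library stood far above the rest, and without it the log2 fold changes were 0.30 and 0.40 and did not meet the threshold. That library also had the highest sum of osteocyte markers of its experiment (16781 CPM), the part of which was not tested. The count depended on how the pairing of tibiae was treated. With the mouse pool as a fixed replicate block, 13 members met the threshold, 9 of them higher, and with a random replicate block 6 did. The share of 1.19% is from the fit without a block and is no background for these counts. In the fit without a block, the count was 0 without the second or the third vehicle nonloaded library. It was 5 without the second or the third L-BAIBA loaded library, which enter through the shared estimate of spread. It was 1 without the first L-BAIBA loaded, either L-BAIBA nonloaded or the first vehicle loaded library.

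The difference in the loading response between experiments (single-bout minus 2-week) was negative for 61 of 69 members, with a median of -0.31 against -0.01 over all genes. At unadjusted p, 0 were higher and 2 lower, where 2.42% of all genes met the rule. They were Robo4 (-0.61, SE 0.24) and Sema6b (-0.52, SE 0.23). The count was 0 without the second vehicle loaded or the first vehicle nonloaded library of the single-bout experiment, and 0 to 3 over all libraries left out in turn. The experiments used different mice, so the number of bouts and the length of treatment cannot be told apart from the set of mice here.

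Given for 5 days without loading, L-BAIBA left few members past the threshold. In L-BAIBA nonloaded against vehicle nonloaded bone, 2 members were higher and 1 lower at unadjusted p (3.68% of all genes met the rule): Sema4a (0.67, SE 0.29), Sema6b (0.46, SE 0.18) and the antisense transcript Plxna4os1 (-1.07, SE 0.46). Sema4a had 182 and 129 CPM in the 2 L-BAIBA nonloaded libraries, against 87.1, 113 and 93.4 CPM in vehicle nonloaded libraries. The first of the L-BAIBA nonloaded libraries came from the same mice as the second L-BAIBA loaded library. Its neutrophil markers summed to 48777 CPM, with 27512 CPM in the other L-BAIBA nonloaded library, and the part of this in Sema4a was not tested. Without the first of those L-BAIBA nonloaded libraries, Sema4a was 0.40 and Sema6b 0.18, neither past the threshold, and Sema6b was 0.69 without the second. The count was 0 without the first, 8 without the second, 5 without the third L-BAIBA loaded library, and 1 without the second or the third vehicle loaded library or the first or the third vehicle nonloaded library. With the random replicate block it was 1. Dcc, high after 2 weeks of L-BAIBA, was 0.03 (SE 0.58) here, and the difference between the experiments (single-bout minus 2-week) was -2.28 (SE 1.02, unadjusted p = 0.0365). Over all members that difference was higher in 1 and lower in 3 at unadjusted p (7.4% of all genes met it), and 2 met it with the random replicate block. It was 0 without the second vehicle nonloaded library of either experiment.

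L-BAIBA combined with a single bout gave Sema4f, Sema4a and Ntng2 the smallest p-values of the members. Against vehicle loaded bone, 9 members were higher and 3 lower at unadjusted p, where 8.85% of all genes were higher and 10% lower (18.9% in either direction). The members' share, 17.4%, was close to that of all genes. Of the 6 class 4 semaphorins, 3 were positive and 3 negative, and the 3 positive ones (Sema4f, Sema4a and Sema4d) met the threshold. Sema4f, a transmembrane class 4 semaphorin, had 8.95, 14.1 and 7.5 CPM in L-BAIBA loaded bone, against 5.37, 4.74 and 4.70 CPM in vehicle loaded bone. The groups did not overlap, and the log2 fold change was 1.04 (SE 0.23, unadjusted p = 0.00085, edgeR adjusted p = 0.17). Sema4a, which is known from immune cells, had 133, 256 and 122 CPM in L-BAIBA loaded bone, against 72.2, 83.1 and 86.5 CPM in vehicle loaded bone. It did not overlap either, with a log2 fold change of 1.08 (SE 0.26, unadjusted p = 0.00184).

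Ntng2, a membrane-anchored netrin relative, had 31.3, 56.6 and 32.0 CPM in L-BAIBA loaded bone, against 18.5, 22.4 and 25.4 CPM in vehicle loaded bone, for a log2 fold change of 0.85 (SE 0.24, unadjusted p = 0.00443). Sema4d had 182, 213 and 171 CPM in L-BAIBA loaded bone, against 158, 144 and 142 CPM in vehicle loaded bone, for a log2 fold change of 0.35 (SE 0.12, unadjusted p = 0.0147). In all 4 genes the second L-BAIBA loaded library was highest. That library also had the highest sums of neutrophil markers (71137 CPM) and of monocyte and macrophage markers (7562 CPM) of any library in the experiment. Both sums were higher in every L-BAIBA loaded than in every vehicle loaded library. Neutrophil markers summed to 30049 to 71137 CPM, against 22613 to 25121 CPM. Monocyte and macrophage markers summed to 3883 to 7562 CPM, against 3127 to 3347 CPM. The part of these in the result was not tested. Without the second L-BAIBA loaded library Sema4a was 0.66 and Ntng2 0.52, both still past the threshold. Sema4d was then 0.25 and did not meet it, and the count of members was 7. Without the third L-BAIBA loaded library the count was 21, for which the share of all genes above is no background. That library stood apart in its sums of osteoblast markers (48004 CPM, with 6519 to 25784 CPM in the others) and chondrocyte markers (1387 CPM, with 93.0 to 340 CPM in the others), and the part of these in the count was not tested.

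The 3 lower members were sparsely counted. Epha5 had 2, 9 and 9 counts in L-BAIBA loaded libraries, against 18, 16 and 15 counts in vehicle loaded libraries, for a log2 fold change of -1.80 (SE 0.63, unadjusted p = 0.0158). Dcc had 0.577, 1.5 and 1.64 CPM in L-BAIBA loaded bone, against 5.80, 3.11 and 1.76 CPM in vehicle loaded bone, for a log2 fold change of -1.50 (SE 0.54, unadjusted p = 0.0187). Neuron markers summed to 4.39, 5.96 and 7.12 CPM in L-BAIBA loaded bone, against 14.7, 7.46 and 6.5 CPM in vehicle loaded bone, and the part of this in Dcc was not tested. Unc5d, another netrin receptor, was -1.80 (SE 0.79, unadjusted p = 0.0442). Unc50 (0.33), Plxnd1 (0.28), Plxnc1 (0.55), the Sema7a receptor, Ephb3 (0.95) and Sema6b (0.36) were the other higher members. Ephb3 had 2.08, 1.53 and 4.69 CPM in L-BAIBA loaded bone, against 1.40, 1.67 and 1.26 CPM in vehicle loaded bone, so the groups overlapped and its highest value was in the third L-BAIBA loaded library. DESeq2 called 866 genes in this comparison at an adjusted p of 0.05, 5 of them members: Sema4f (adjusted p = 0.00389), Sema4a (0.00852), Ntng2 (0.0228), Sema4d (0.0415) and Plxnd1 (0.0444). Of the 88 other pathway genes tested, 15 were higher and 4 lower at unadjusted p, where 8.85% of all genes were higher and 10% lower.

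**Figure D5:**
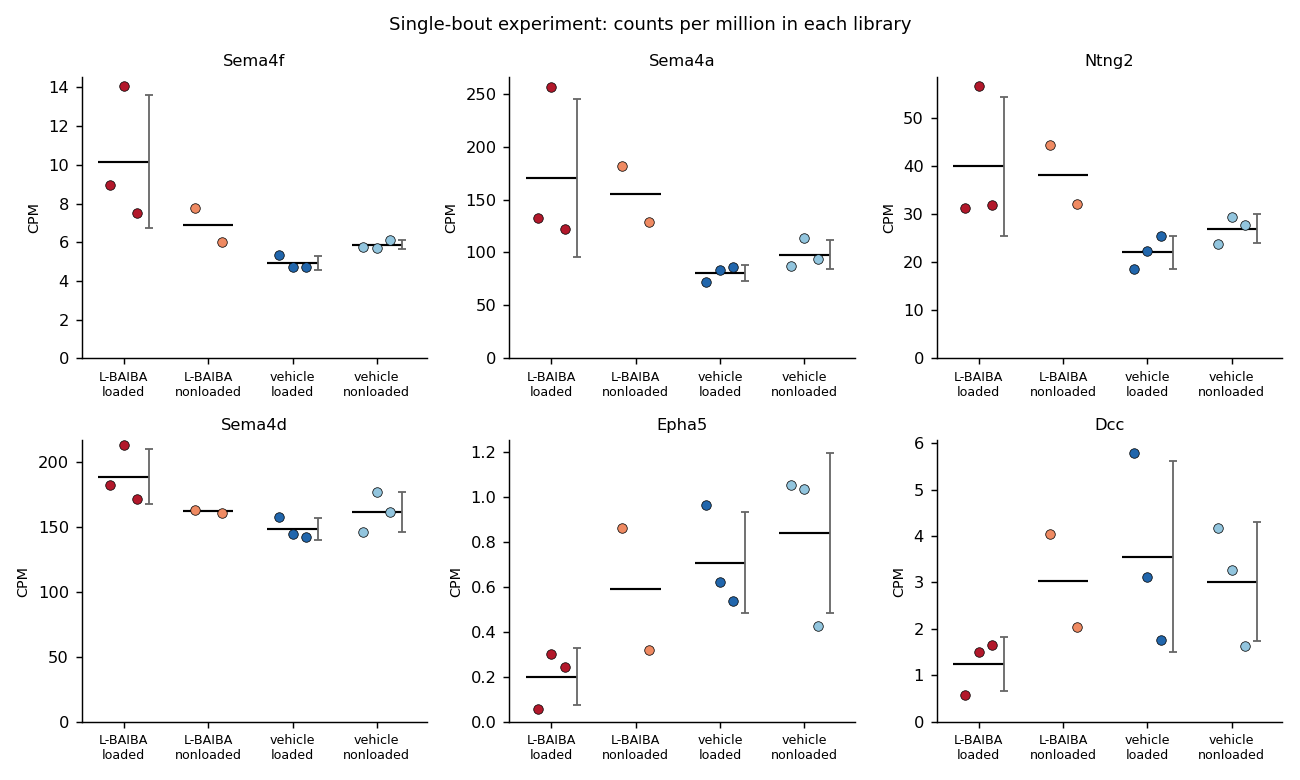
CPM of 6 members in each library of the single-bout experiment (points), with group means (lines) and SD (bars, groups of 3). Sema4f, Sema4a, Ntng2 and Sema4d are higher in all 3 L-BAIBA loaded than in all 3 vehicle loaded libraries, and Epha5 and Dcc are lower.

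Against vehicle nonloaded bone, the single-bout combination gave 4 higher members (Sema4f, Sema4a, Ntng2 and Efna4) and 3 lower ones (Epha5, Dcc and Unc5d) at unadjusted p, where 7.06% of all genes were higher and 9.59% lower (16.7% in either direction). Sema4f was 0.79 (SE 0.22, unadjusted p = 0.00505, edgeR adjusted p = 0.233) and Epha5 was -2.03 (SE 0.62, unadjusted p = 0.00737). Without the second L-BAIBA loaded library Sema4f was 0.49 and Sema4a 0.38, against 0.79 and 0.80 with it, both past the threshold either way, while Ntng2 was 0.23, against 0.56 with it, and missed the threshold. DESeq2 called 351 genes at an adjusted p of 0.05, 1 of them a member, Sema4f (adjusted p = 0.0488). The count was 12 without the third L-BAIBA loaded library and 4 without the second vehicle loaded or the second vehicle nonloaded library. This comparison and the one before it share the 3 L-BAIBA loaded libraries.

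Within L-BAIBA mice, 1 bout gave 1 higher member (Sema4f, 0.56, SE 0.25) and 2 lower ones (Epha5, -1.56, and Dcc, -1.29) at unadjusted p, where 3.44% of all genes met the rule. Without the first L-BAIBA nonloaded library Epha5 was -0.67 and Dcc -0.71, Epha5 was -1.02 with the fixed replicate block, and without the second L-BAIBA loaded library Sema4f was 0.25, none of them past the threshold. The count was 0 to 4 with a library left out, at 0 without the second vehicle loaded or the second vehicle nonloaded library and 1 without the first L-BAIBA loaded, first L-BAIBA nonloaded or first vehicle nonloaded library. In the difference in loading response between L-BAIBA and vehicle mice, Sema4f was 0.81 (SE 0.34), and 0.50 without the second L-BAIBA loaded library, missing the threshold. This difference gave 1 member at unadjusted p, Sema4f, where 2.01% of all genes met the rule in the fit without a replicate block. It gave 12 members with the fixed and 6 with the random replicate block, and 0 to 7 with a library left out (7 without the third L-BAIBA loaded library, 3 without the third vehicle loaded library, 2 without the second L-BAIBA nonloaded or the first vehicle loaded library, and 0 without the second vehicle loaded or any of the vehicle nonloaded libraries). For the combination, the difference between experiments (single-bout minus 2-week) gave 3 higher members, Efna4 (1.72, SE 0.53), Sema4f (1.18, SE 0.54) and Unc50 (0.48, SE 0.17), and 1 lower, Dcc (-2.43, SE 0.99), at unadjusted p, where 10.7% of all genes met the rule. That count was 10 without the third single-bout L-BAIBA loaded library, 7 without the second L-BAIBA loaded or the third vehicle nonloaded library of the 2-week experiment, and 2 without the first vehicle nonloaded library of either experiment.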

How the data were processed

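RNA-seq was performed on osteocyte-enriched tibial bone, in 23 libraries (12 from the 2-week and 11 from the single-bout experiment). The bones were flushed, digested in collagenase and EDTA, and a strand-specific mRNA library was made. The authors aligned reads to mm10 with STAR 2.5.2b and assigned uniquely mapped reads to RefSeq genes with featureCounts (Subread 1.5.1), counting by strand. The deposited tables hold these raw counts per gene, which were the values used, and the exon length, a deposited value in bases that is classed as other. The deposited log2 RPKM or FPKM columns and the authors' fold changes, p-values and adjusted p-values for their own comparisons were not used. All per-sample count columns matched a sample.

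The filter kept genes above 0.5 CPM in 4 or more libraries of 1 experiment (15576 genes, 2-week, and 15500 genes, single-bout). All 69 members passed it. Counts were normalized by TMM and tested with edgeR 4.0.16 (quasi-likelihood F test, all 4 groups in 1 fit, Benjamini-Hochberg adjustment) in R 4.3.3. The differences between experiments were fitted over the 15492 shared genes of both tables. Alternatives were DESeq2 1.42.0, size factors, no filter, 2 groups only, leaving out a library, and the mouse pool as a fixed block (edgeR) or a random block (limma 3.58.1, prior count 2). The fits were tested on simulated data. Left and right tibiae of 1 pool come from the same mice, and their deviations from the group means correlated at 0.156 to 0.563 in the 9 pools with both tibiae, so the pools pair the samples. The main fit left this pairing out. Its p-values measure the spread between libraries, each from 2 mice, as if all were independent.

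The genes named are, in each comparison, the 5 members with the smallest unadjusted p under 0.05, the 3 highest members of each family per kb, and a list of pairs known in bone. Other members that met the threshold are named beside them. The members and lists were chosen with earlier results of these data known. Promoters are from RefSeq, and 58 of 69 members matched by symbol.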

Additional observations from a re-analysis of the deposited data

How the results depend on the processing

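The alternatives were run for the members with the smallest p-values of each comparison within an experiment (at most 5) and not for the other members named. Of these 727 values, all kept their direction, 600 also staying past the unadjusted threshold and 127 not. The shares of all genes given above belong to the main fit and are no background for the counts below. These counts of members at unadjusted p moved more. With the groups of a comparison fitted alone, they were 1 (2-week combination), 3 (2-week combination against loading), 1 (2-week loading in L-BAIBA mice), 5 (single-bout loading), 5 (single-bout L-BAIBA), 4 (single-bout combination), 6 (single-bout combination against loading) and 1 (single-bout loading in L-BAIBA mice). DESeq2 gave 1 for the 2-week combination and 2 for the single-bout interaction, and RLE size factors gave 1 for single-bout loading and 2 for the single-bout interaction.

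With the mouse pool as a fixed replicate block, the counts were 5 for 2-week loading in L-BAIBA mice, 13 for single-bout loading (median log2 fold change 0.26) and 12 for the single-bout interaction. With a random replicate block they were 1 (2-week combination), 3 (2-week combination against loading), 5 (2-week loading in L-BAIBA mice), 17 (2-week interaction), 6 (single-bout loading), 1 (single-bout L-BAIBA), 6 (single-bout interaction) and 2 (difference in L-BAIBA). The block moved no other count by over 1.5 times.

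Chosen after seeing the data, leaving out both libraries of the shallowest 2-week pool gave 2 (combination), 20 (combination against loading), 19 (interaction, median -0.56) and 4 (difference in loading), with a median of -0.22 for loading in L-BAIBA mice. Leaving out both libraries of a single-bout pool that stood apart gave 4 (loading), 0 (L-BAIBA), 7 (combination against loading), 0 (loading in L-BAIBA mice) and 2 (difference in L-BAIBA).

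With 1 library left out, counts ranged in the 2-week experiment from 5 to 20 (loading), 4 to 11 (L-BAIBA), 0 to 5 (combination), 0 to 15 (combination against loading), 0 to 6 (loading in L-BAIBA mice, medians -0.25 to 0.0599) and 5 to 22 (interaction). In the single-bout experiment they ranged from 0 to 5 (loading), 0 to 8 (L-BAIBA), 4 to 12 (combination, medians -0.22 to 0.17), 7 to 21 (combination against loading), 0 to 4 (loading in L-BAIBA mice, medians -0.23 to 0.21) and 0 to 7 (interaction, medians -0.26 to 0.19), and between experiments from 0 to 3 (loading), 0 to 6 (L-BAIBA) and 2 to 10 (combination). The cause of these moves was not tested. Where 1 library of a group remained, that lone library was assumed to vary like the other groups. Values of members under 1 CPM per kb rest on few counts.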
